A study of Mus musculus with 34 samples.

Results

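The regions described here were the open sites of elongating spermatids that were found both in SV129 mice and in C57BL6 mice with intact Gcn5. They were the 415 subnucleosome peaks of SV129 elongating spermatids that overlapped a subnucleosome peak of C57BL6 elongating spermatids by 1 bp or more. The SV129 list held 787 peaks, so the shared sites were 52.7% of it, and the 12 subnucleosome lists of the series together held 191455 peaks. The remaining 372 SV129 peaks had no overlapping peak in the C57BL6 list. The sites were chosen by the peak positions in those elongating spermatid lists, so presence in them is a description of the choice and not a finding. The overlap that made a site shared was 118 bp at the median and under 50 bp for 5 of them, the smallest being 6 bp. The closest miss was an SV129 peak 43 bp from a C57BL6 peak, and 28 of the 372 lay within 1 kb of one.

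Exposed DNA was profiled in 34 libraries of mouse male germ cells, in 12 groups, by ATAC-seq with paired reads, a method based on insertion of sequencing adapters by Tn5 transposase. The backgrounds were C57BL6 mice whose floxed Gcn5 alleles were deleted by a Cre driven from Stra8, a gene switched on as germ cells enter meiosis (cKO), C57BL6 mice with 2 intact Gcn5 alleles (WT), and SV129 mice aged 8 to 12 weeks, for which the labels name no Gcn5 allele. The stages were cells in meiosis (MS), spermatids while round (RS) and while elongating or condensing (ES), and mature cauda sperm (Sp), the testis cells being sorted by sedimentation to at least 85% purity. The ES groups held 2 cKO, 2 WT and 4 SV129 libraries, the SV129 ones being 2 biological replicates run in duplicate. SV129 cells and sperm were pooled from 11 mice per collection, so an SV129 library is no single animal. Each group has 1 deposited list of subnucleosome peaks and 1 of nucleosome calls, so values have no replicate error, read depth is unknown, and differences between groups are differences between single lists. Wilson 95% intervals are given for shares; they cover counting error only and treat neighbouring peaks as independent.

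In elongating spermatids histones are acetylated and replaced by transition proteins, then by protamines, and the nucleus condenses while transcription stops. Gcn5, encoded by Kat2a, is a histone acetyltransferase. Accessible sites in most cells lie at promoters and enhancers. A different kind of peak is known from satellite arrays, ribosomal DNA, nuclear copies of mitochondrial DNA and other multicopy sequence, where reads of many copies are placed on the few copies an assembly holds.

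For 2 shared sites the underlying sequence could be read from the RefSeq table of promoter windows (GRCm38.p6, 300 bp a window, 250 before and 50 after the start), and it is shown because stretches of these sites recur in windows of other genes. Only such windows were compared, so recurrence elsewhere in the genome was not seen. Windows of 3 genes were touched by 3 of the 415 sites, and the touch at Gm15564 was 10 or 12 bp, depending on the annotated start. No stretch of 50 or of 36 bases from the Gm15564 windows recurred in a window of another gene. In the windows below, the open site is in capitals and the strand is that of the gene (minus for both). The Gm9758 window lies at chr5:14914840-14915139 and its open site of 113 bp at chr5:14914964-14915076.

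Gm9758 window: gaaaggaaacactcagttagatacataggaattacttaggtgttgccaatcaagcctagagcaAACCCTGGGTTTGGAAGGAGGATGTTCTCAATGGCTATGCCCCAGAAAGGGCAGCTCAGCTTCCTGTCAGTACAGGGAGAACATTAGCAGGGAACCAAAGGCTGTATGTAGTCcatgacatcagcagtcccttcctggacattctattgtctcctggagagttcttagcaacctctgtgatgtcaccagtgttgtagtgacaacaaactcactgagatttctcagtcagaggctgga
Gm21149, longest run shared with it: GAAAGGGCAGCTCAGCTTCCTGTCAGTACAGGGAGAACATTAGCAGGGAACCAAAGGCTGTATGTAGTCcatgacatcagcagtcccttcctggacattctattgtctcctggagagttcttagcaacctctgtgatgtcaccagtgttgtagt

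The second line is the same 154 bases without a mismatch at another place of chromosome 5, chr5:15476513-15476666, and its 69 capital bases belong to the open site. At a word length of 50 bases, the Gm9758 window shared at least 1 word with the windows of 21 other genes at other positions, among them Speer4b, Speer4c, Speer4d, Speer4e and Speer4f1 of the Speer family of testis genes for glutamate-rich proteins. Words within the open site itself recurred in the windows of 6 other genes. Of all 32851 windows in the table, 7.87% shared a word of 50 bases with another gene's window elsewhere, and 1.04% did so with 20 or more genes. At 36 bases the Gm9758 count was 23 genes, all on chromosome 5.

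The window of 4931408C20Rik lies at chr1:26687411-26687710 and its open site of 149 bp at chr1:26687441-26687589.

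4931408C20Rik window: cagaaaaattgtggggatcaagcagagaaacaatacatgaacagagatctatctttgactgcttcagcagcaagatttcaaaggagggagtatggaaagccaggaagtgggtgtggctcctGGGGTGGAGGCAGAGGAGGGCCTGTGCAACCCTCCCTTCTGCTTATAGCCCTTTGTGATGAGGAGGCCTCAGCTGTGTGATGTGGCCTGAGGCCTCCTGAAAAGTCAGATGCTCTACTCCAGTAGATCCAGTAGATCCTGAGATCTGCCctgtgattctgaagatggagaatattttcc
Gm597, longest run shared with it: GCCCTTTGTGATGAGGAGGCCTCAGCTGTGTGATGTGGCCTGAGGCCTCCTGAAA

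Here 1 other gene, Gm597 at chr1:28780277-28780331, shared words of 50 bases, and the 55-base run shown lies wholly inside the open site. The open parts of the Gm9758 and 4931408C20Rik windows were 51.3% and 56.4% G or C, and neither held a CpG. One annotated miRNA was touched as well: 16 of the 19 bases of mmu-miR-6236 (chr9:110281353-110281371, plus strand) lay in a shared site of 115 bp at chr9:110281254-110281368. Its mature sequence is printed with the seed, bases 2 to 8, in capitals.

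mmu-miR-6236: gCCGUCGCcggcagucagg

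That site was present in all 12 subnucleosome lists and had no nucleosome call in any of the 12 nucleosome lists. It had a deposited score of 57.3 in cKO and 58.1 in WT at ES, on a scale the authors did not state. Copies of the other shared sites could not be counted, because no genome sequence was used here.

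The first comparison asked whether sites open in ES were also listed at other stages. Of the 415 shared sites, 404 (97.3%, interval 95.3 to 98.5%) had an overlapping subnucleosome peak in at least 1 of the 9 lists of MS, RS and Sp, against 86.3% of all 787 SV129 ES peaks and 73.9% of the other 372. All 9 of those lists held 157 of the shared sites (37.8%, 33.3 to 42.6%), and all 157 were also in the cKO ES list, so they stood in all 12 lists. The same 157 sites are 19.9% of all 787 peaks, since a peak in all 12 lists is a shared site by the rule. None of the other 372 peaks was in all 9 lists of the other stages (0 of 372, interval to 1.02%). At least 1 list of MS held 347 shared sites (83.6%), of RS 350 (84.3%) and of Sp 370 (89.2%). Of all 787 SV129 ES peaks the shares were 64.3%, 72.4% and 65.4%.

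By stage, 64.1% of the shared sites were in the cKO MS list, 76.4% in WT MS and 70.4% in SV129 MS, against 38.1%, 47.3% and 56.0% of all 787 peaks. For RS the shares were 47.0% (cKO), 75.2% (WT) and 77.8% (SV129), against 26.9%, 49.4% and 67.9% of all 787. For Sp they were 73.0% (cKO), 59.5% (WT) and 84.8% (SV129), against 39.9%, 32.0% and 62.8% of all 787. The lowest of these 9 shares, that of cKO RS, belongs to the shortest MS or RS list, with 4075 peaks against 56480 in WT RS. The sperm lists of cKO and WT were shorter still, with 1127 and 3024 peaks, and held larger shares of the sites than cKO RS.

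**Figure D1:**
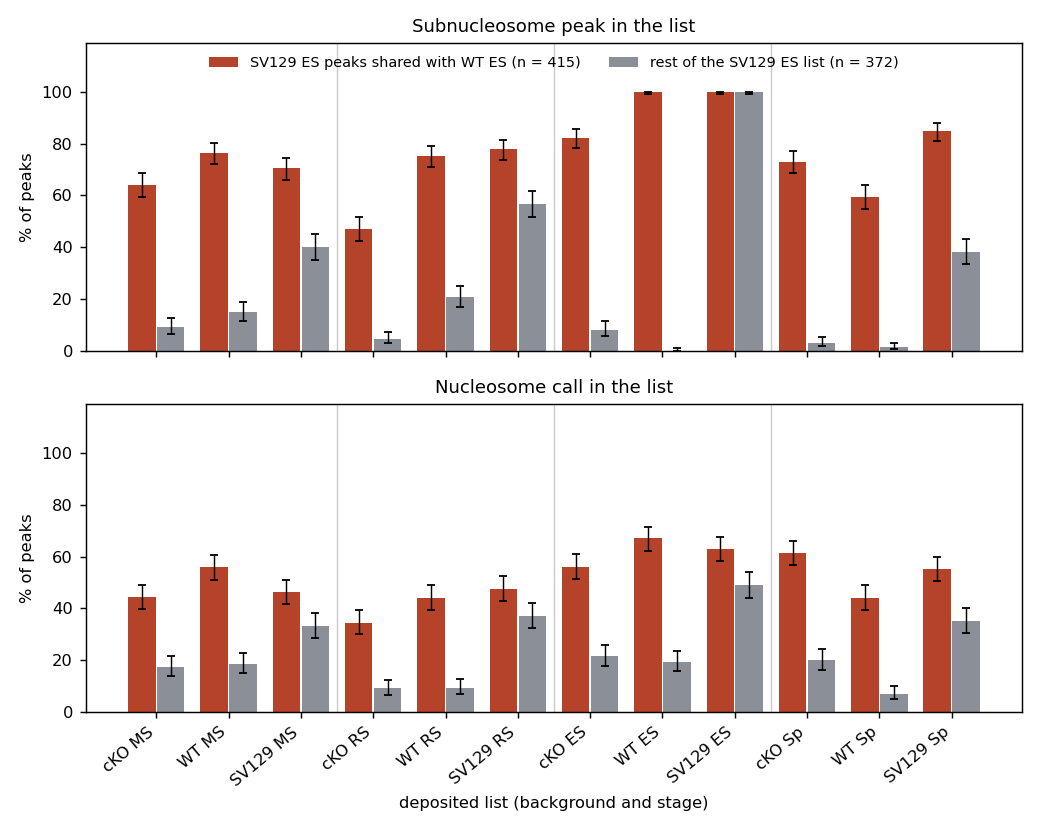
Percentage of the 415 shared ES peaks (red) and of the other 372 SV129 ES peaks (grey) that overlapped a subnucleosome peak (top) or a nucleosome call (bottom) in each of the 12 deposited lists, with Wilson 95% intervals. The 100% bars at SV129 ES, and at WT ES for the shared peaks, follow from the rule; elsewhere in the top panel the shared peaks range from 47.0% to 84.8%.

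The other 372 SV129 peaks differed in which lists held them. They were found in 40.1% of cases in SV129 MS, 56.7% in SV129 RS and 38.2% in SV129 Sp, but in 14.8%, 20.7% and 1.34% in the WT lists of those stages. For the shared sites the WT and SV129 shares lay close together at MS and RS and were 59.5% and 84.8% at Sp. The 372 were chosen by absence from the WT ES list, so low WT shares at other stages can follow from the rule. The rule, strain, depth and number of libraries cannot be told apart in this contrast.

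The same rule at other stages gave 26461 shared sites at MS, 26287 at RS and 2025 at Sp. Of the MS sites 1.14% were in the cKO ES list, 1.09% in WT ES and 1.20% in SV129 ES, and of the Sp sites 11.5%, 12.0% and 11.9%. List length limits these shares: ES lists of 473 to 787 peaks can overlap few of 26461 sites, so nothing was read from the low values. The sources used here do not give the calling threshold behind each list.

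Only 11 shared sites (2.65%) were in no list of another stage, and 4 of these were in the cKO ES list. They were 72 to 202 bp wide, with deposited WT scores of 3.81 to 19.6. Of these sites 3 lay within chr8:20514071-20631037, 2 on the unplaced scaffold GL456370, and 1 each on 6 further chromosomes, X and Y among them. The only annotated genes they overlapped were Gm21119 and Igk, the immunoglobulin kappa light chain locus.

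The Gcn5 comparison was made within ES. The cKO ES list of 473 peaks overlapped 341 of the 415 shared sites (82.2%, 78.2 to 85.6%), against 47.1% of all 787 SV129 ES peaks. WT ES peaks without an SV129 peak had a cKO peak in 54 of 146 cases (37.0%, 29.6 to 45.1%), and SV129 ES peaks without a WT peak in 30 of 372 (8.06%, 5.71 to 11.3%). The classes were themselves defined by the WT and SV129 ES lists, so these shares describe them and are no test. Seen from the cKO list, 72.1% of its peaks lay on shared sites, and 51 of 473 (10.8%) lay on no peak of the WT or SV129 ES list.

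Where a shared site was present in cKO, its borders were nearly the same. The median shift was 7 bp at the start and 7 bp at the end between cKO and SV129, and likewise 7 and 7 bp between WT and SV129. Both borders lay within 20 bp in 61.3% of 341 sites for cKO and in 60.5% of 415 for WT. In the Sp lists this share was 59.1% in cKO, 58.7% in WT and 58.8% in SV129, close to the ES values, and in the MS and RS lists it was 45.1% to 51.1%. The other SV129 ES peaks with a cKO ES peak had both borders within 20 bp in 66.7% of 30 cases. Their median shifts were 3.5 and 5.5 bp, so close borders in cKO ES were not particular to the shared sites.

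The 74 shared sites without a cKO ES peak were narrower, with a median of 101 bp (quartiles 80 and 150 bp) against 144 bp (104 and 234 bp) for the 341 sites with one. Their deposited WT ES score was lower, with a median of 10.5 (3.81 to 28.9) against 23.2 (3.16 to 179). Of the 74, 38 (51.4%) were in a cKO list of another stage, against 88.6% of the 341, and 36 were in no cKO list. A cKO ES peak lay within 1 kb of 23 of the 74. Whether the absences come from the peak calling threshold or from the cells was not tested.

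**Figure D2:**
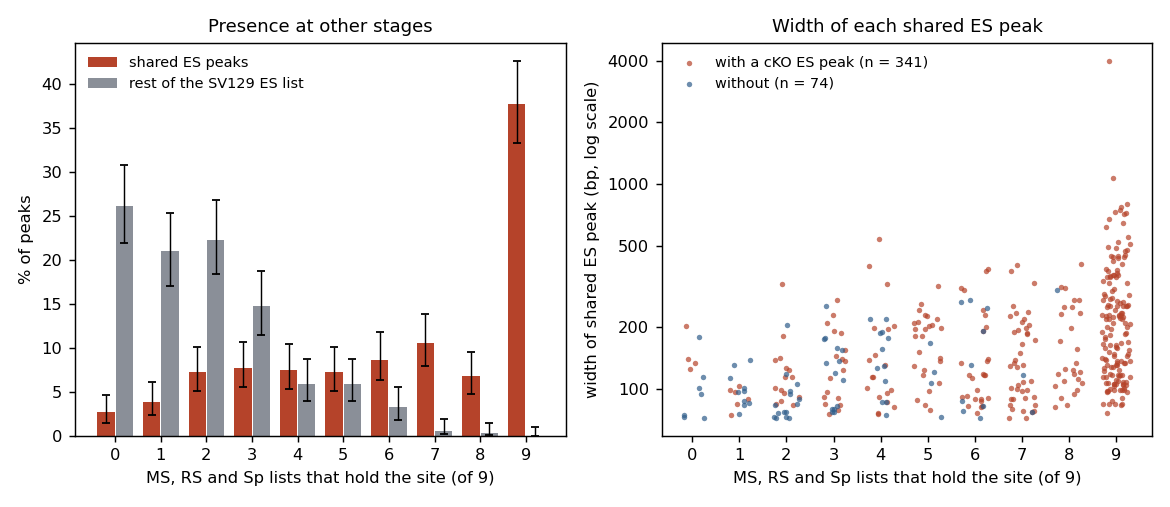
Left, percentage of the 415 shared ES peaks (red) and of the other 372 SV129 ES peaks (grey) held by 0 to 9 of the MS, RS and Sp lists, with Wilson 95% intervals; 37.8% of the shared peaks and none of the others were in all 9. Right, width of each shared ES peak on a log scale against the same count, with horizontal jitter, red where cKO ES had a peak (341) and blue where it had none (74).

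Shared sites were short. Their width ran from 72 to 4000 bp with a median of 136 bp (quartiles 98 and 226 bp), and 232 of 415 (55.9%) were narrower than 150 bp, the width of every nucleosome call. The other 372 SV129 peaks had a median of 98 bp and reached 377 bp. Shared sites of the other stages were wider, with medians of 167 bp at MS, 157 bp at RS and 183 bp at Sp. Together the 415 sites covered 80.5 kb. Width moved with presence: the 157 sites in all lists had a median of 201 bp, the 138 in 5 to 8 other-stage lists 131 bp, the 109 in 1 to 4 lists 103 bp and the 11 in none 114 bp. Across the same 4 classes, presence in cKO ES was 100%, 88.4%, 53.2% and 36.4%, and the median WT ES score was 43.4, 18.5, 11.6 and 9.14, both lower the fewer lists held the site.

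The 5 widest sites were all in all 12 lists. The widest, 4000 bp at chr1:24611581-24615580, overlaps the annotated pseudogenes Gm10222 and Gm10925. The same bases were covered over 4000 bp in cKO, WT and SV129 alike at MS and at RS, over 3923 bp in cKO and 3605 bp in WT at ES, and over 3771 bp in cKO, 3621 bp in WT and 4000 bp in SV129 at Sp. Its deposited score stayed between 12.8 and 17.1 in all 8 lists with scores. The second, 1063 bp at chr2:98666254-98667316, was covered over 1060 to 1063 bp in every list, with scores of 58.8 in cKO ES and 56.5 in WT ES, and lies outside annotated genes. The next 3 were 798 bp at chr6:3200774-3201571, 771 bp at chr15:75086252-75087022 and 747 bp at chr10:22142302-22143048, the last of them in E030030I06Rik, and their scores in ES were 71.8, 59.1 and 53.5 in cKO and 59.3, 67.7 and 54.2 in WT.

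The sites were clustered. Joined across gaps of up to 10 kb they formed 252 clusters, of which 59 held 2 or more sites and together 222 of the 415 (53.5%). The other SV129 ES peaks stood in such clusters in 24.7% of cases, and the shared sites of Sp in 10.3%. Each set was joined only with itself, so a peak beside one of another set could count as single. All 787 SV129 ES peaks joined together stood in clusters in 43.8% of cases. At MS and RS, where the lists are far denser, 40% and 36% were in clusters. With gaps of up to 1 kb 35.9% of the shared ES sites were in clusters, and with 100 kb 62.2%, when the other SV129 ES peaks had 9.95% and 41.1%. At 100 kb the MS and RS sites, at 89.8% and 89.1%, stood above the ES sites. The 5 largest clusters held 82 sites at 10 kb (19.8%), and 8.67% of the sites at 1 kb. Members of a cluster can hold copies of 1 sequence and are not independent.

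The largest cluster had 31 sites in 38.2 kb at chr9:3000010-3038226, at the first sequenced bases of chromosome 9, outside annotated genes. Over this span the lists held 22 peaks in cKO, 30 in WT and 26 in SV129 at MS, and 16, 24 and 24 at RS in the same order of backgrounds. They held 28, 33 and 33 at ES and 31, 30 and 32 at Sp. The number of peaks thus stayed between 16 and 33 while the lists ranged from 473 to 56480 peaks in length. The second cluster, 23 sites in 44.4 kb at 68931 to 113347 of the unplaced scaffold JH584304, had 6 peaks in cKO RS and 23, 24 and 28 in cKO, WT and SV129 at ES.

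The third cluster had 11 sites in 3708 bp at chr14:19415722-19419429, outside annotated genes, and its sites covered 49.4% of it. It held 7 to 11 peaks in every list. The fourth, 9 sites at chr17:39843051-39848776, overlaps Rn18s-rs5, a pseudogene related to 18S ribosomal RNA, and the lncRNA AY036118, and held 5 to 11 peaks in every list. The fifth, 8 sites at chr10:58221733-58239601, lies over Duxf3, which encodes a double homeobox factor known from the early embryo, and its neighbours LOC100504180, Gm4981, Gm9919 and Gm10807. Of its 8 sites 1 was in all 12 lists, against 15 of 31, 6 of 23, 7 of 11 and 6 of 9 in the 4 larger clusters, and the WT Sp list held 1 peak there against 7 in cKO Sp and 9 in SV129 Sp.

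**Figure D3:**
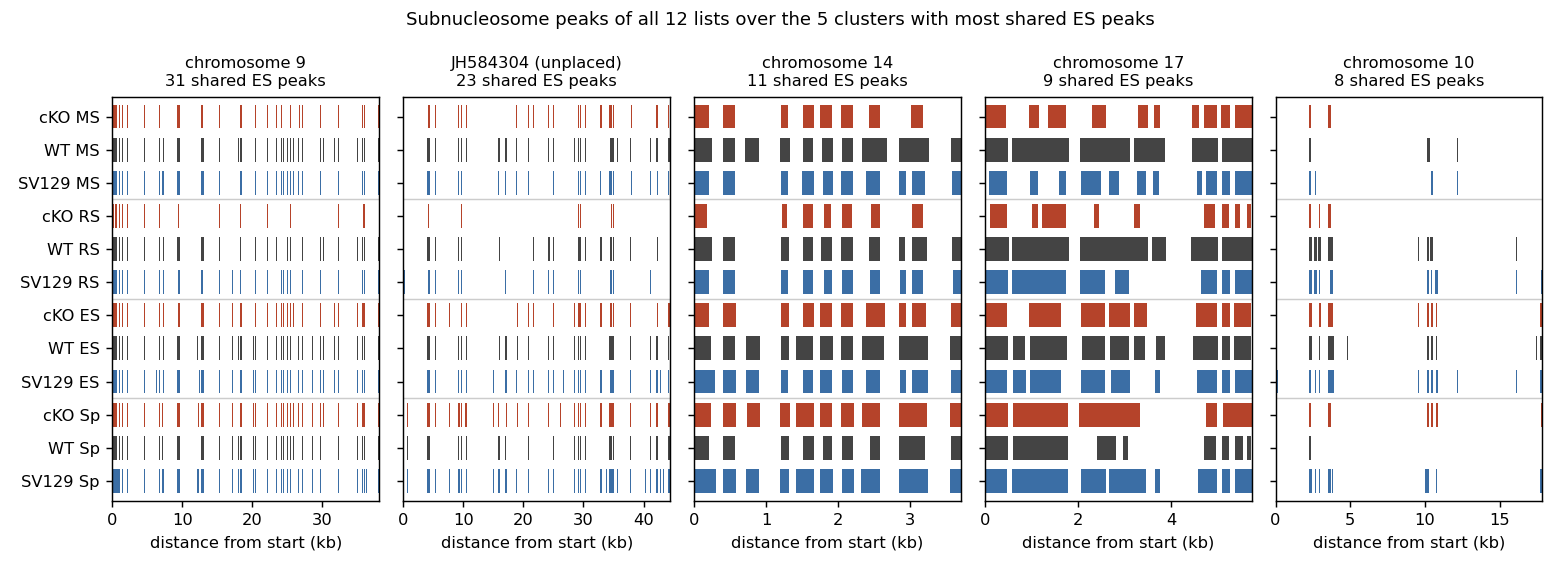
Subnucleosome peaks of the 12 lists (rows, by stage and background) over the 5 clusters with most shared ES peaks; the horizontal axis is the distance in kb from the first base of the cluster, and boxes narrower than 1 part in 250 of the panel are drawn at that width. Many peak positions recur in most lists in the first 4 panels, but the JH584304 panel holds 6 peaks in cKO RS against 33 in SV129 Sp. The chromosome 10 panel holds 1 peak in WT Sp against 8 to 12 in the ES lists.

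Unplaced or unlocalized scaffolds held 53 of the 415 shared sites (12.8%, 9.90 to 16.3%), against 2.69% of the other SV129 ES peaks and 0.227%, 0.145% and 2.17% of the shared sites of MS, RS and Sp. They lay on 10 of the 40 scaffolds with any interval, at 13.2 sites per Mb, against 0.133 per Mb on chromosomes 1 to 19, X and Y. JH584304 alone had 26. That scaffold held 27 peaks in cKO, 27 in WT and 31 in SV129 at ES and 28, 24 and 38 at Sp. The scaffold sites were as wide as the rest (median 133 and 136 bp), and 75.5% of them were in cKO ES.

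Another share lay at the starts of chromosomes, a class defined after the data were seen. Mouse autosomes and X carry their centromere at the start, beside satellite arrays that the assembly leaves out. Within 500 kb of the lowest coordinate in any list lay 62 of the 352 shared sites on autosomes and X (17.6%, 14.0 to 21.9%), on 10 chromosomes, in windows that make up 0.389% of the sequence. Of the other SV129 ES peaks 2.83% lay there, and of the shared sites of MS, RS and Sp 0.641%, 0.393% and 2.38%. Chromosome 9 supplied 32 of the 62, chromosome 16 supplied 7 and chromosome 11 supplied 6. Scaffolds and chromosome starts together held 115 of 415 (27.7%), against 5.38% of the other 372.

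**Figure D4:**
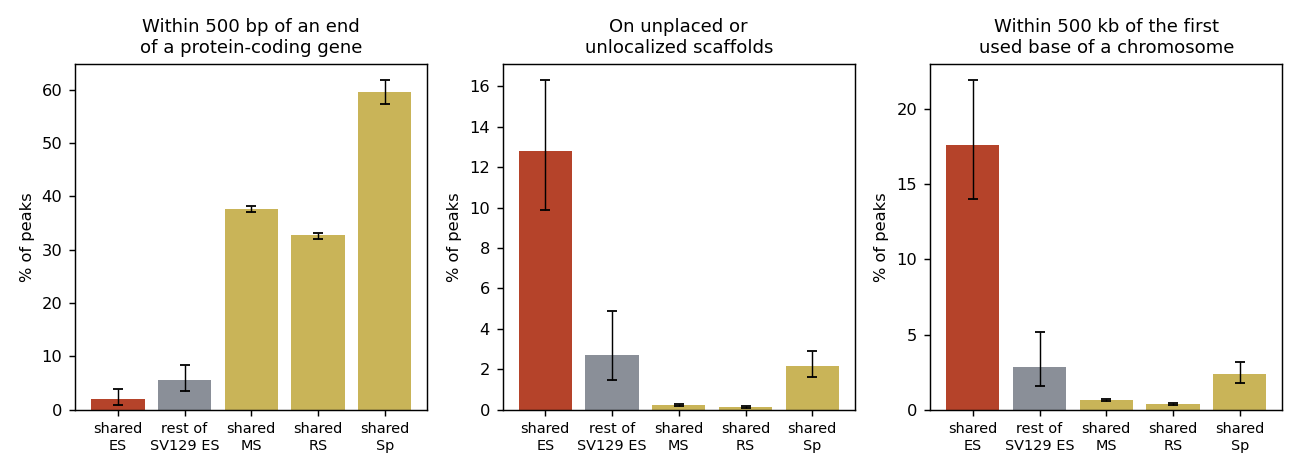
Percentage of peaks within 500 bp of an annotated end of a protein-coding gene (left), on scaffolds (middle) and within 500 kb of the first used base of an autosome or X (right), with Wilson 95% intervals, for the shared ES peaks (red), the other SV129 ES peaks (grey) and the SV129 peaks shared with WT at MS, RS and Sp (yellow). The shared ES peaks are lowest on the left, at 1.93%, and highest in the other panels, at 12.8% and 17.6%.

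Few shared ES sites lay at ends of protein-coding genes. How much of the sequence lies near such ends was not measured, so avoidance of them cannot be read from the share. Of the 362 sites on chromosomes 1 to 19, X and Y, 7 lay within 500 bp of an annotated end (1.93%, 0.940 to 3.94%), against 5.52% of the other SV129 ES peaks. The shared sites of MS, RS and Sp lay there in 37.7%, 32.7% and 59.6% of cases. Outside annotated genes lay 59.4% of the shared ES sites, against 45.6% of the other SV129 ES peaks and 27.7%, 31.8% and 27.9% of the shared sites of MS, RS and Sp. Pseudogenes held 3.87% of the shared ES sites, fewer than the 6.63% of the other SV129 ES peaks, and 1.35%, 1.29% and 0.757% of the shared sites of MS, RS and Sp. The gene table gives no strand, so a gene end here is either end of a gene. Here and above, outside annotated genes means outside the genes of this table, which lacks some known loci.

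The 7 sites belonged to 6 genes. They were Gm32584 with 2 sites, Gm9758, 4931408C20Rik, Duxf3, LOC100504180 and Vmn2r29, a vomeronasal receptor gene of a large family. The Gm32584 sites, 230 and 185 bp wide, were in all 12 lists. The Vmn2r29 site, 168 bp wide, had no cKO ES peak.

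Within genes, 12 genes held 3 or more shared sites. Myo3a, a myosin with a kinase domain known from hair cells, held 7 in 2624 bp of its 391 kb, at chr2:22587564-22590187. All 7 were in cKO ES, where the deposited score ran from 20.6 to 71.4, against 15.7 to 69.9 in WT ES, and 5 were in all 12 lists. Adam5 and Adam32, neighbouring genes of the ADAM metalloprotease family of testis and sperm, held 5 and 4. Kcnu1, a sperm potassium channel, held 4. Smo, the transducer of Hedgehog signals, held 3 within 634 bp of 25.9 kb. Sfi1, a centrin-binding protein gene at the start of chromosome 11, held 3, of which 2 had a cKO ES peak. The others were Duxf3, LOC100504180, 2700054A10Rik, Gm31136, Rn18s-rs5 and Speer4cos, with 3 each.

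Gene lists that fit the stage were also read. None of the 5 protamine and transition protein genes, Prm1, Prm2, Prm3, Tnp1 and Tnp2, whose products package the spermatid genome, had a shared site in the gene or within 500 bp of it. None of 11 spermatid genes, such as Acrv1 of the acrosome and Akap4 of the sperm tail, had one, and none of the 7 multicopy X and Y germ cell genes found in the table, such as Sly and Slx. Of 20 listed loci known to hold or adjoin multicopy sequence, only 7 were in the gene table. The missing ones, such as Rn45s, Gm10800 and Gm10715, could not be read. Of the 7, 3 had a shared site. They were Sfi1, Lars2, the mitochondrial leucyl-tRNA synthetase (254 bp, score 56.7 in cKO ES and 74.0 in WT ES), and Zc3h7a, a zinc finger gene (378 bp, 43.9 and 60.1). The Lars2 and Zc3h7a sites were in all 12 lists. For scale, 80 of 21779 protein-coding genes held a shared site inside the gene. The lists were fixed with earlier results of these data known, so no enrichment was read from the 3 of 7.

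Peaks on the sites were set beside the whole of each list by deposited score. Of the top 1% of peaks at MS, 51 of 161 lay on shared sites in cKO and 37 of 359 in WT, where 1.65% and 0.851% of all peaks did. At RS it was 39 of 41 in cKO and 37 of 565 in WT, against 4.93% and 0.522% of all peaks. At Sp it was all 12 in cKO and 30 of 31 in WT, against 26.4% and 8.30% of all peaks. At ES it was all 5 in cKO and all 6 in WT, but 72.1% and 74.0% of all peaks there lay on the sites, and the WT list entered the rule. In cKO RS the median score on the sites stood at percentile 92.3 of the list. The WT Sp median stood at percentile 95.6 and that of cKO Sp at 86.5. In the ES lists, of which WT entered the rule, it stood at 62.2 in cKO and 60.1 in WT. The SV129 subnucleosome lists carry a score of 0 throughout and could not be ranked.

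**Figure D5:**
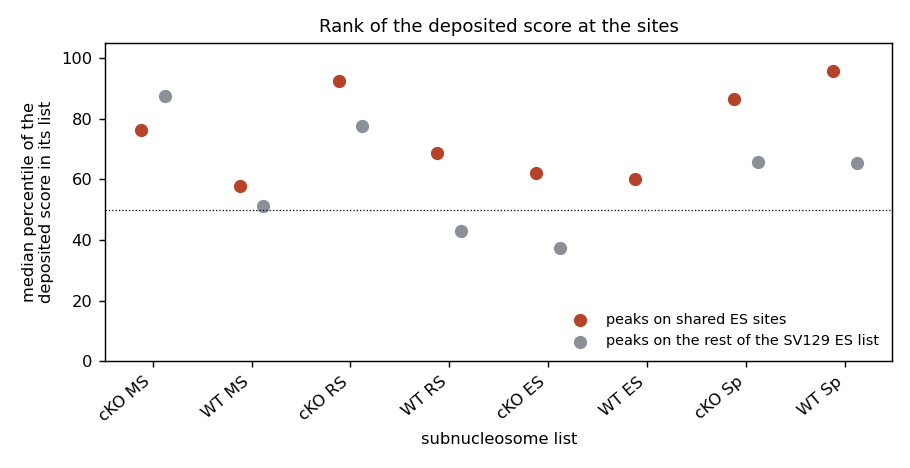
Median percentile, within each subnucleosome list with scores, of the deposited score of peaks on shared ES sites (red) and on the other SV129 ES peaks (grey; none exist in WT ES by the rule); the dotted line is the list median. Red points lie above the line in all 8 lists, from 57.7 in WT MS to 95.6 in WT Sp; in cKO MS the grey point is higher, at 87.3.

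Nucleosome calls were found on many of the same sites. At ES 56.1% of the shared sites carried a nucleosome call in cKO, against 67.0% in WT and 63.1% in SV129, beside 39.8%, 44.5% and 56.4% of all 787 peaks and 21.5%, 19.4% and 48.9% of the other 372. At MS the shares of shared sites were 44.3%, 55.9% and 46.3% in the same order of backgrounds, against 31.6%, 38.2% and 40.2% of all 787 peaks. At RS they were 34.5%, 44.1% and 47.5%, against 22.5%, 27.7% and 42.6%, and at Sp 61.4%, 44.1% and 55.2%, against 41.8%, 26.6% and 45.7%. A site could thus be listed as open and as carrying a nucleosome in the same background and stage. Any of the 3 ES nucleosome lists held a call on 332 of the 415 and on 211 of the other 372. All 12 nucleosome lists held one on 77 sites and on none of the other 372. No nucleosome list held a call on 58 of the 415 and on 103 of the other 372. A site with calls carried 4.42 of them on average in cKO ES, 4.48 in WT ES and 4.79 in SV129 ES, and the 4000 bp site on chromosome 1 carried 79 to 105 in every list. Calls of 150 bp in such number must overlap, so counts of calls are not numbers of separate nucleosomes.

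In sperm the sites took a large share of all nucleosome calls where those lists were short. The cKO list had 0.359% of its 347951 calls on them, the WT list 11.5% of 8628 and the SV129 list 8.63% of 13615, although they cover 80.5 kb. In number this was 1250 cKO, 988 WT and 1175 SV129 calls, overlapping calls included. The 4000 bp site alone held 82, 103 and 104 of them. The deposited nucleosome scores on the sites stood at the low end of each ES list, where the median percentile was 0.186 (cKO), 0.273 (WT) and 0.250 (SV129), against 25.5, 14.1 and 5.35 on the other 372 peaks. The direction of that score is not stated.

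Against the question whether the shared ES sites look like repeat or mapping hot spots, the measured features were these. They recurred in lists of every stage and in cKO. Borders in cKO ES were similar, as they also were for the other SV129 ES peaks present there. On scaffolds, at chromosome starts or in clusters lay 240 of 415 (57.8%, against 27.2% of the other 372). The share at gene ends was below that of the shared sites of MS, RS and Sp. The 175 sites elsewhere were not rarer in the other lists: 41.1% were in all 12 lists and 83.4% in cKO ES, against 35.4% and 81.2% of the 240. Whether reads at these sites came from more than 1 genomic copy was not tested, since neither the reads, a genome sequence nor a repeat annotation was used, and the 415 sites cannot be told apart on this basis into repeats and single-copy open sites.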

How the data were processed

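The authors deposited 24 interval lists, 1 of subnucleosome peaks and 1 of nucleosome calls (each 150 bp wide) for each of 12 groups, with no values per library, so replicates were combined or chosen before deposit. Per the submitters' processing notes, STAR 2.5.2a and MACS2 2.1.0.20140616 were used, with no role stated, and the build was GRCm38 (mm10). Per the deposited files, the score column is a number on an unstated scale, and it is 0 throughout the SV129 subnucleosome lists. Names of WT and cKO peaks carry the number of 1 library only. How fragments were divided into classes and how peaks were called was not stated. Read depth is unknown, so precision beyond counting error is unknown too.

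Overlaps of 1 bp or more were counted with bedtools 2.31.1 and summarised with pandas 2.3.3 and Wilson 95% intervals from scipy 1.17.1. Clusters joined sites across gaps of up to 10 kb. Genes came from the RefSeq table of GRCm38.p6 (21779 protein-coding genes). Left out were 340 genes, because their coordinates lie before the first interval of any list on their chromosome and so belong to another sequence. Chromosome starts were counted from the lowest coordinate in any list. The helper functions recovered all 6 answers on simulated intervals. With 1 list per group no test between conditions was made.

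The sites and gene lists were chosen with earlier results of these data known. Named were the 5 clusters with most sites, the 5 widest sites, genes with a site within 500 bp of an end, genes with 3 or more sites and the fixed lists. The miR-6236 site, the 11 sites of no other stage and the chromosome starts were chosen after their values were seen. Alternatives were a 50% overlap, the upper 50% of scores, other joining distances and gene end windows, and leaving out scaffolds or the largest clusters.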

Additional observations from a re-analysis of the deposited data

How the results depend on the processing

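Of the results named here, 4 were counted as moved under an alternative. The number of clusters was not counted among them, although it depended on the joining distance. The number of shared sites was 410 with an overlap of 50% of the shorter interval and 362 on chromosomes 1 to 19, X and Y, against 415, but 260 when only the upper 50% of WT ES peaks by deposited score were used. The share with a cKO ES peak was 53.5% with the upper 50% of cKO ES peaks, against 82.2%, and 82.2% to 84.1% with a 50% overlap, without scaffolds and counted by cluster. The median share over the 12 nucleosome lists was 44.1% with a 50% overlap, against 51.3%. Sites at ends of protein-coding genes were 6.91% with windows of 2000 bp, against 1.93%. The first pair of alternatives uses fewer peaks and the last a wider window by construction. The 50% overlap counts no overlap that the 1 bp rule leaves out, so shares under it could only stay or fall. Of 52 comparisons for single lists, 17 moved beyond the counting interval: all 12 nucleosome shares with a 50% overlap and 5 of 9 subnucleosome shares counted by cluster. Scaffolds held 12.7% and 14.6% of the sites under the other ways of choosing them. At 1 and 100 kb 317 and 212 clusters formed, against 252 at 10 kb. The share of sites in clusters was 35.9% at 1 kb, 53.5% at 10 kb and 62.2% at 100 kb. Chosen after seeing the data, the share in all 12 lists was 39.8% without scaffolds and 36.6% without the 5 largest clusters. No paired analysis was possible because each group has 1 deposited list and no result comes from a test. Leaving out a replicate was not run for the same reason, and the planned repeat measures were not run without a genome sequence. Depth limits every absence from a list: it cannot be told apart from a peak under the calling threshold.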
